A study of Rattus norvegicus with 22 samples.

Results

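The chemokine and cytokine ligands described here are the secreted signals through which tissue recruits and instructs immune cells. They were taken from the array by gene name: every CC and CXC chemokine, every numbered interleukin, and Cx3cl1, Tnf, Lif, Csf1, Csf2 and Csf3. The rule found 72 probes of 68 genes among the 30367 probes (26456 gene names) of the array, and 63 of these probes (59 genes) reached well above background on 4 or more of the 22 arrays and were tested. The tissue was engineered cardiac tissue, a cylinder of heart cells in matrix gel held by an anchor at each end, cultured for 7 days; its cells came from embryonic ventricles of Sprague Dawley rats at gestational day 14.5. From culture day 5, 4 tissues received cyclic stretch for 48 h (0.5 Hz, 5% elongation) together with 10 µM BIRB796, 4 received BIRB796 alone, 7 received stretch alone, and 7 were controls that were neither stretched nor treated. BIRB796 inhibits p38 mitogen-activated protein kinase. The inhibitor was in the medium of the whole tissue, which holds ventricular cells of several kinds, so no value belongs to one cell type.

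Chemokines are small proteins that bind receptors coupled to G proteins on leukocytes and set the direction in which these cells move. Interleukins, tumour necrosis factor, leukemia inhibitory factor and the colony stimulating factors act on receptors that switch on kinases and transcription factors. In the heart, resident macrophages, fibroblasts, endothelium and the muscle cells themselves can make them. The p38 kinase is a classic regulator of this group: in many cells its target MK2 releases cytokine mRNA from proteins that mark it for decay, and p38 also acts on transcription factors such as those that bind AP-1 sites.

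The 22 arrays were read in 3 scan sessions. All stretch with BIRB796 and all BIRB796 arrays were read in session 3, beside control replicates 4 to 7. Stretch replicates 4 to 7 had session 2 to themselves, and the first 3 replicates of stretch and of control shared session 1. Stretch was therefore set against control within session 1, and the inhibitor groups against control within session 3. The share of probes well above background ran from 77.4% to 84.4% on the arrays of session 3, from 71.8% to 78.7% on those of session 2, and from 86.1% to 93.1% on those of session 1. Stretch replicates 4 and 5 differed by less than the noise between repeated spots of a probe and were counted as 1 sample, which leaves 21. Stretch replicate 7 stood apart, with a spread against the other stretch arrays of 9.65 to 12.4 times the spot noise, where the others reached at most 7.47 times. Control replicate 7 stood apart from the other 3 controls of session 3, at 2.75 to 3.32 times the spot noise against 1.15 to 1.60 times among those 3. Its spread was not unusual: BIRB796 arrays differed by 1.49 to 3.54 times and session 1 controls by 2.27 to 3.45 times. The other 3 controls lay close together. Control replicates 5 and 6 shared a slide that held no treated array. Control replicate 7 shared its slide with stretch with BIRB796 replicates 2 and 3, and control replicate 4 with replicate 1 of both inhibitor groups. Slide and replicate therefore cannot be told apart in the distance of control replicate 7 from the other controls. Fits without replicate 7 rest on control replicates 4 to 6 alone, which lay close together. The spread in these fits is pooled over the groups of session 3, and both differences and standard errors change. In BIRB796 against control, the standard error fell from 0.55 to 0.34 for Ccl19 and rose from 0.145 to 0.151 for Il17b. Replicate 7 was the lowest of the 4 controls in 40 of the 63 tested ligand probes. Counts of session 3, and the genes on which it bears most, are therefore also given without it. The 8 cardiomyocyte markers were well above background on every array.

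All levels below are log2 signal minus the 75th percentile of the array, so a step of 1 is a doubling. A probe's level is compared between samples, not with that of other probes, since probes differ in how well they bind. Differences are from limma and are given with their standard error; a probe is called at an adjusted p (Benjamini-Hochberg, over all 26881 tested probes) under 0.05. Replicates are called biological by the series, but no label links one to its own culture, and a p-value here reflects only how far these samples spread, which may be technical in part.

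Most ligand families gave a signal. Of the 63 tested probes, 40 (38 genes) were well above background on all 22 arrays. Among the CC chemokines 13 of 20 genes did so with their brightest probe: Ccl2, Ccl7 and Ccl12, which draw monocytes, Ccl3 and Ccl5, which draw monocytes and T cells, Ccl6, Ccl9, Ccl11, Ccl19, Ccl20, Ccl22, Ccl24 and Ccl27. Among the CXC and CX3C chemokines 8 of 13 did: the neutrophil attractants Cxcl1 and Cxcl2, Cxcl10, Cxcl12, Cxcl13, Cxcl14, Cxcl16 and fractalkine, Cx3cl1. The 4 IL-1 family genes Il1a, Il1b, Il18 and Il33 were above background on all arrays, as were Tnf, Il16, Csf1, Csf3, Il34, Il11, Lif, Il13, Il15, Il17b, Il17d, Il20 and Il23a. Ccl4, Cxcl11, Il10, Il12a and Il17c passed on 21 arrays. The other tested genes were near background on more of them: Cxcl6 passed on 19 arrays, Il27 on 20, Il24 on 18, Cxcl17 on 17, Il7 on 15, Ccl17 on 13, Il5 on 10, Ccl25 and Il25 on 9, Il3, Il17f and Il22 on 7, Ccl21 and Ccl26 on 6, and Ccl1 and Il4 on 4. The remaining 9 genes did not pass the filter. Csf2, Cxcl9 and Il12b were well above background on 3 arrays, Ccl28 and Il6 on 2, Il2 on 1, and Cxcl3, Il9 and Il21 on 0.

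The level of many of these probes differed between the scan sessions. Between the controls of session 3 and those of session 1, 28 of the 63 probes did not overlap and lay lower in session 3, and 6 did not overlap and lay higher. The same counts were not made over all tested probes, so they are not read as particular to the ligands. Il20, a skin and epithelial cytokine of the IL-10 family, averaged -6.88 ± 0.45 in session 3 controls (SD, n = 4) and -1.98 ± 0.33 in session 1 controls (SD, n = 3). The macrophage chemokine Ccl3 went the other way, at 1.14 ± 0.61 in session 3 controls and -0.89 ± 1.02 in session 1 controls. Of the 19 probes lower by more than 2 in session 3 controls, only 5 were well above background on all arrays. Session, slide and culture cannot be told apart in this shift.

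**Figure D1:**
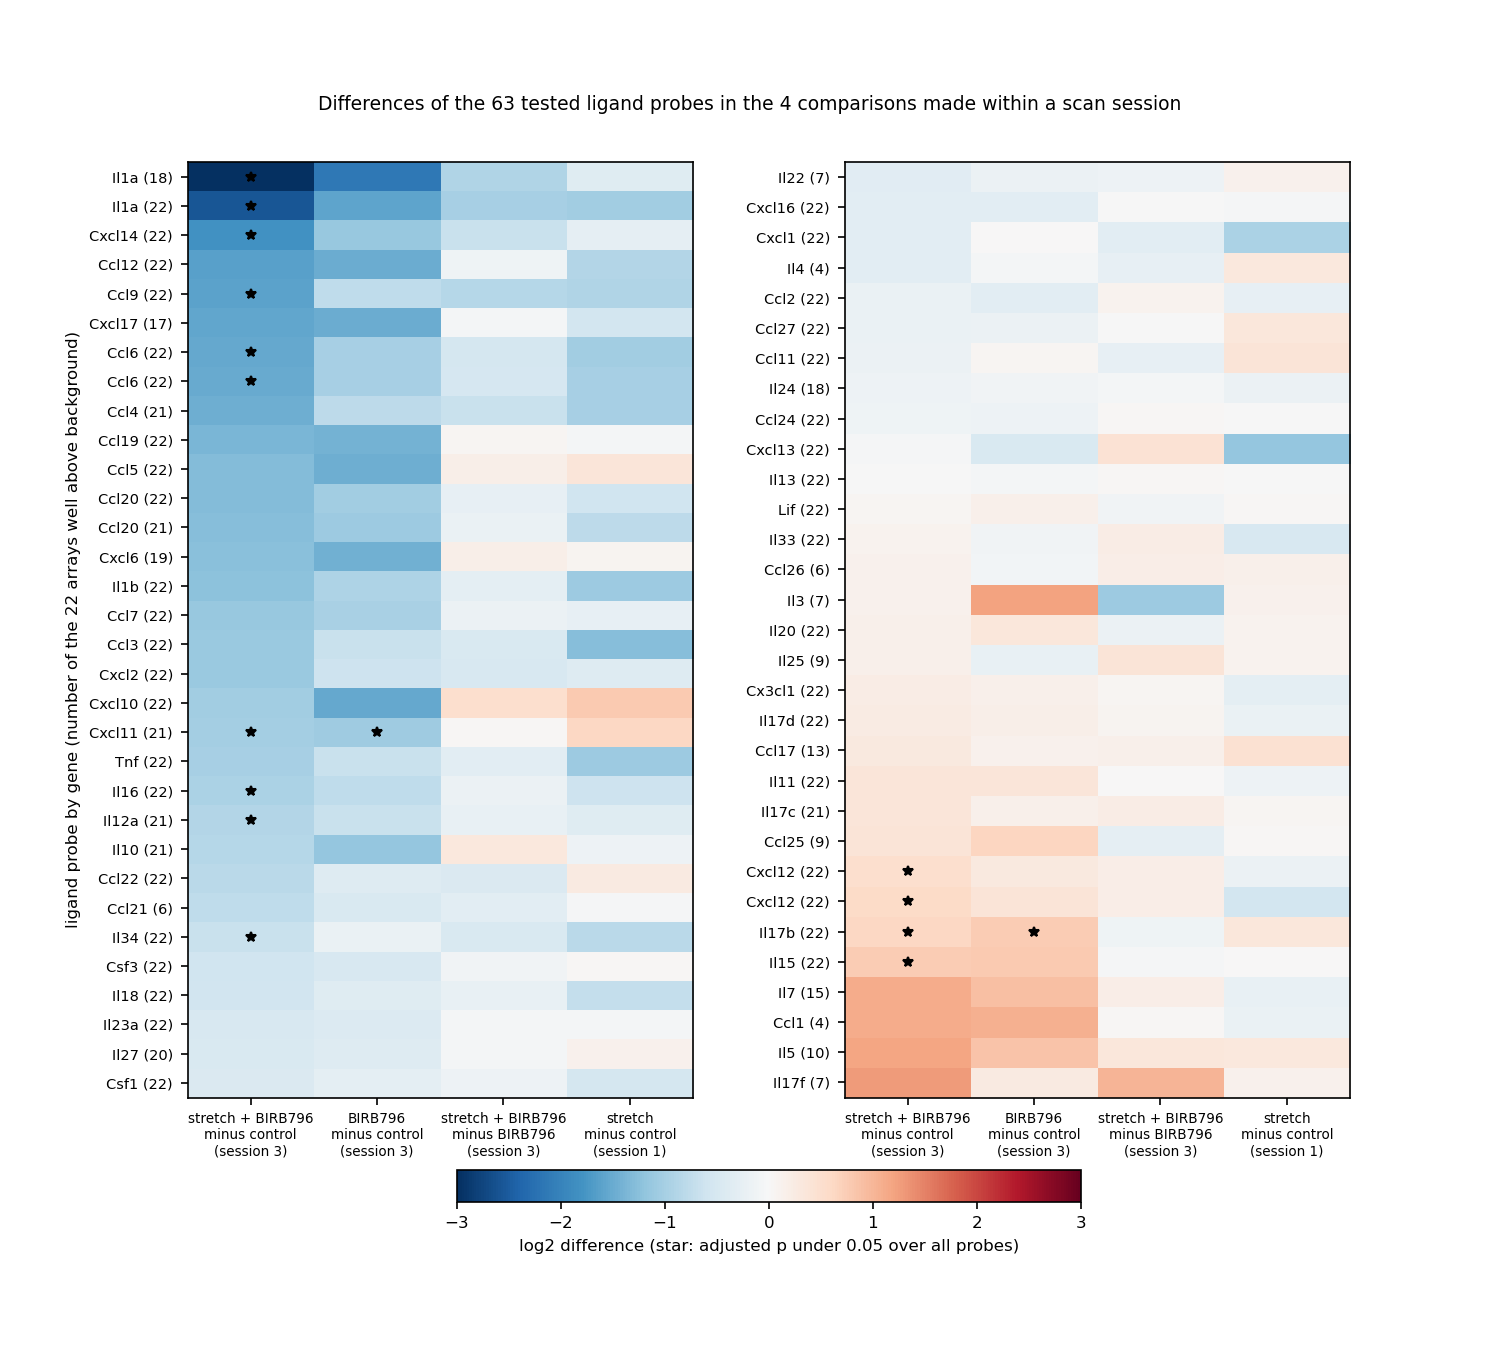
Differences in log2 signal of the 63 tested ligand probes (rows, labelled by gene with the number of the 22 arrays on which the probe was well above background) in 4 comparisons made within 1 scan session (columns); blue is lower in the treated tissue, red higher, and a star marks an adjusted p under 0.05. With stretch and BIRB796 together, 43 probes lie below control and 20 above, and the 14 starred probes belong to 11 genes.

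The first comparison asked how tissue given stretch and inhibitor together differed from untreated tissue. Ligand RNA was mostly lower: the median difference over the 63 ligand probes was -0.44, against 0.04 over all tested probes, and 43 of the 63 were negative. The interleukin Il1a fell by about 6-fold on its brighter probe, and the chemokines Cxcl14, Ccl9, Ccl6 and Cxcl11 fell by 2-fold to 3.5-fold. Il16, Il12a and Il34 fell by less, and the chemokine Cxcl12, Il15 and Il17b rose. In bulk tissue, fewer cells of a type and less RNA per cell cannot be told apart. With all 21 samples and scan session in the model, 1 of the 63 ligand probes passed the test, an Il1a probe. Of all probes 0.0781% were called (0.0558% lower, 0.0223% higher). An unadjusted p under 0.05 was reached by 20 ligand probes, 18 of them lower, and by 9.46% of all probes. Cxcl14, the other Il1a probe and Cxcl11 came next in that model, at adjusted p = 0.124, 0.171 and 0.178, and leaving out 1 replicate at a time gave 0 to 5 ligand calls there, 0 without control replicate 4, 5 or 6 and 5 without control replicate 7. Within session 3 alone, where the differences are the same but the spread is taken from these 12 arrays, 14 ligand probes of 11 genes were called, 22.2% of the 63, where 7.47% of all probes were called: 10 probes of 8 genes lower (4.14% of all probes) and 4 probes of 3 genes higher (3.33% of all probes). Without control replicate 7, 28 ligand probes were called, 22 lower and 6 higher, and they include all 14. Of all probes 16.4% were then called (7.81% lower, 8.57% higher). These calls rest on the 3 controls that lay close together. Among the ligands then called, and not called with all 12 arrays, were Tnf (-1.22 ± 0.26, adjusted p = 0.0134), Il1b (-1.49 ± 0.31, adjusted p = 0.0127), Il18 (-0.74 ± 0.11, adjusted p = 0.00284), Ccl3 (-1.42 ± 0.26, adjusted p = 0.00722), Ccl4 (-1.77 ± 0.40, adjusted p = 0.0178) and Cxcl10 (-1.46 ± 0.37, adjusted p = 0.0267), which are described below with all 12 arrays. In 21 ligand probes (33.3%) every stretch with BIRB796 value lay below every control, where 7.65% of all probes did so, and in 5 (7.94%) above, where 9.01% did. Without control replicate 4 a single ligand probe was called, and without control replicate 5 or 6 none, although 199, 108 and 161 probes of the whole array were called. With slide as a fixed block limma called 0 ligand probes and 2 of all probes. Within session 3 that block kept the sign of all 14 differences. It gave -1.89 ± 0.69 for the brighter Il1a probe, -0.63 ± 0.13 for Cxcl11, -0.65 ± 0.14 for Il34 and 0.74 ± 0.15 for the first Cxcl12 probe. With slide as a random block it called 11, and not Ccl9 (adjusted p = 0.0628), Cxcl14 (0.0588) or the brighter Il1a probe (0.0529).

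Il1a encodes interleukin-1 alpha, an alarm cytokine that is active as a precursor and signals through the IL-1 receptor. It has 2 probes, on chromosome 3 of the rat genome build rn4 at 116913748 to 116913807 and at 116914826 to 116914885, both on the minus strand. The first read -4.81, -5.51, -5.52 and -5.21 in stretch with BIRB796, -5.41, -3.91, -4.91 and -2.85 in BIRB796, and -2.41, -2.12, -1.66 and -4.59 in session 3 control tissue. All stretch with BIRB796 values lay below all controls, with control replicate 7 close above them; BIRB796 tissue spread over both. The second probe read -8.28, -7.59, -9.17 and -7.80 in stretch with BIRB796, -8.27, -7.34, -7.81 and -5.79 in BIRB796, and -5.43, -4.83, -4.61 and -5.75 in control tissue. Here every control stood well above every stretch with BIRB796 value, though only 2 of the 4 stretch with BIRB796 arrays were well above background on this probe. The second probe fell by 3.05 ± 0.56 with session in the model (adjusted p = 0.0480) and by 3.05 ± 0.52 within session 3 (adjusted p = 0.0151), a size that rests in part on arrays near background, and the first by 2.57 ± 0.66 within session 3 (5.93-fold, adjusted p = 0.0418). Leaving out each of the 12 arrays of session 3 in turn kept the second probe's call 10 times and the first probe's 4 times. The sister cytokine Il1b, made by activated macrophages, had no overlap either, at -1.67, -1.74, -1.43 and -1.41 in stretch with BIRB796 against -0.36, -0.11, 0.23 and -1.13 in control tissue, with a difference of -1.22 ± 0.34 that did not pass (adjusted p = 0.0534). Il18 differed by -0.57, and Il33, an alarm cytokine of barrier and stromal cells, by 0.10 ± 0.13, its interval running from -0.18 to 0.38.

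Of the 19 CC chemokine genes tested, 15 were lower on their brightest probe and 2 were called, with a median difference of -0.82. Ccl6, a chemokine that myeloid cells make and that is known from mice and rats, has 2 probes on chromosome 10 of rn4, at 71660234 to 71660293 and at 71660623 to 71660682, both on the minus strand. The first read -0.73, -0.21, 0.06 and -0.34 in stretch with BIRB796, 0.01, -0.05, 0.39 and 0.58 in BIRB796, and 1.43, 1.38, 1.65 and 0.48 in control tissue. All 4 stretch with BIRB796 values lay below the controls, and the BIRB796 values overlapped both groups. It fell by 1.54 ± 0.26 (2.91-fold, adjusted p = 0.0146), and the second probe by 1.51 ± 0.28 (adjusted p = 0.0184). Ccl9, a neighbour of Ccl6 that in mice attracts myeloid cells through Ccr1, lies at 71645984 to 71646043 of the same strand. It read -5.49, -6.0, -5.27 and -5.97 in stretch with BIRB796, -5.05, -5.06, -5.51 and -3.72 in BIRB796, and -3.80, -3.78, -3.69 and -5.05 in control tissue, and fell by 1.60 ± 0.40 (3.03-fold, adjusted p = 0.0405). The groups did not overlap, with control replicate 7 again the lowest control. Among those not called, Ccl3 read 0.09, -0.02, 0.09 and -0.08 in stretch with BIRB796 against 1.30, 1.39, 1.61 and 0.24 in control tissue (-1.12 ± 0.32, adjusted p = 0.0595), with no overlap, and Ccl4, a related macrophage chemokine, also had none (-1.46). Ccl12, Ccl20, Ccl5, Ccl19 and Ccl7 differed by -1.63, -1.29, -1.29, -1.37 and -1.14, and Ccl22 by -0.82. Ccl2, the main monocyte attractant, read 3.40, 3.15, 3.06 and 2.68 in stretch with BIRB796 and 2.92, 3.46, 3.85 and 2.89 in control tissue. These groups overlapped widely, and the difference was -0.21 ± 0.33 with an interval from -0.93 to 0.51. Ccl11, Ccl24, Ccl27 and Ccl17 differed by -0.19, -0.12, -0.20 and 0.30. No fold is given for Ccl1, Ccl21, Ccl25 and Ccl26, which were not well above background on any session 3 control array.

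Of the 11 CXC and CX3C chemokine genes tested, 9 were lower. Cxcl14, a chemokine of epithelium and stroma, has its probe on chromosome 17 of rn4 at 14295398 to 14295457, plus strand. It read -4.78, -4.83, -4.58 and -5.29 in stretch with BIRB796, -4.59, -4.28, -4.55 and -3.42 in BIRB796, and -2.20, -2.74, -2.73 and -4.57 in control tissue. Control replicate 7 met the upper edge of the treated tissue, while the other 3 controls stood far above it. Cxcl14 fell by 1.81 ± 0.46 (3.50-fold, adjusted p = 0.0401), and by 2.31 ± 0.29 without control replicate 7 (adjusted p = 0.00151). Leaving out each of the 12 arrays in turn kept the call 4 times. Cxcl11, an interferon-induced ligand of Cxcr3, lies on chromosome 14 at 17252192 to 17252251, plus strand. It read -5.98, -6.34, -6.56 and -6.45 in stretch with BIRB796, -6.04, -6.67, -6.46 and -6.33 in BIRB796, and -5.18, -5.12, -4.98 and -5.98 in control tissue. To 2 decimals control replicate 7 equalled the highest stretch with BIRB796 value, and every other treated value was lower. Cxcl11 fell by 1.02 ± 0.22 (2.03-fold, adjusted p = 0.0264). Cxcl10, its neighbour and fellow Cxcr3 ligand, differed by -1.03 ± 0.46 and was not called (adjusted p = 0.190).

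Cxcl12, which holds and guides Cxcr4-bearing cells and is made by stroma, was the chemokine that rose. Its probes lie on chromosome 4 of rn4, plus strand, at 153516205 to 153516264 and 153510285 to 153510344. The first read 1.84, 1.72, 1.77 and 1.86 in stretch with BIRB796, 2.10, 1.48, 1.43 and 1.42 in BIRB796, and 1.13, 1.28, 1.32 and 1.15 in control tissue. Every stretch with BIRB796 and every BIRB796 value lay above every control. It rose by 0.58 ± 0.14 (1.49-fold, adjusted p = 0.0361) and the second probe by 0.50 ± 0.10 (1.42-fold, adjusted p = 0.0214). The neutrophil attractants Cxcl1, Cxcl2 and Cxcl6 differed by -0.32, -1.11 and -1.26, Cxcl17 by -1.56, Cxcl16 by -0.32, the B cell attractant Cxcl13 by -0.04 and Cx3cl1 by 0.23. None of these was called with all 12 arrays.

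Among the other interleukins, Il34, the second ligand of the macrophage receptor Csf1r beside Csf1, lies on chromosome 19 at 40662763 to 40662822, minus strand. It read 0.40, 0.52, 0.67 and 0.47 in stretch with BIRB796, 0.69, 1.19, 0.94 and 1.05 in BIRB796, and 1.22, 1.19, 1.26 and 1.01 in control tissue. The stretch with BIRB796 tissues lay below every BIRB796 and every control tissue. It fell by 0.66 ± 0.11 (1.58-fold, adjusted p = 0.0145). Il16, a ligand of Cd4, lies on chromosome 1 at 139908269 to 139908328, minus strand, and read -1.91, -1.41, -1.58 and -1.99 in stretch with BIRB796, -1.50, -1.86, -1.29 and -1.52 in BIRB796, and -0.53, -0.71, -0.60 and -1.29 in control tissue. It fell by 0.94 ± 0.19 (1.92-fold, adjusted p = 0.0227), with both inhibitor groups at or below the lowest control, replicate 7. Il12a, the p35 chain shared by IL-12 and IL-35, lies on chromosome 2 at 158714677 to 158714736, plus strand, and read -5.72, -6.11, -6.08 and -5.91 in stretch with BIRB796, -6.04, -5.87, -5.42 and -5.60 in BIRB796, and -4.79, -5.01, -4.93 and -5.54 in control tissue. It fell by 0.89 ± 0.18 (1.85-fold, adjusted p = 0.0224), without overlap.

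Il15 and Il17b went up. Il15, a survival factor for natural killer and memory T cells, lies on chromosome 19 at 27496157 to 27496216, plus strand. It read -2.37, -2.87, -2.70 and -2.82 in stretch with BIRB796, -2.21, -2.44, -3.09 and -2.91 in BIRB796, and -3.47, -3.47, -3.66 and -3.21 in control tissue. It rose by 0.76 ± 0.19 (1.70-fold, adjusted p = 0.0414), and both inhibitor groups lay wholly above control. Il17b, an IL-17 family ligand made outside the T cell lineage, lies on chromosome 18 at 57667477 to 57667536, plus strand, and read -1.46, -1.89, -1.91 and -2.11 in stretch with BIRB796, -1.46, -1.69, -1.87 and -1.85 in BIRB796, and -2.51, -2.53, -2.58 and -2.26 in control tissue. It rose by 0.63 ± 0.14 (1.55-fold, adjusted p = 0.0311), again without overlap. Of its family, Il17d differed by 0.24 and Il17c by 0.37, neither called; Il25 and Il17f were not well above background on any session 3 control array and are not read.

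Tnf, the central inflammatory cytokine, read -0.41, -0.26, -0.10 and -0.27 in stretch with BIRB796, -0.63, 0.32, 0.07 and 0.50 in BIRB796, and 0.57, 0.98, 1.33 and 0.03 in control tissue. All stretch with BIRB796 values lay below all controls, and the difference of -0.99 ± 0.29 did not pass (adjusted p = 0.0633). Csf1, the macrophage growth factor, differed by -0.44, and Csf3, the granulocyte growth factor, by -0.59. Il10 differed by -0.86, Il23a by -0.48 and Il27 by -0.45. Il11 and Lif both signal through gp130: Il11 differed by 0.37, and Lif by 0.06 ± 0.13 with an interval from -0.23 to 0.35. Il7 differed by 1.11. Il5 was not well above background on any session 3 control array and is not read. Il13, Il20 and Il24 differed by -0.02, 0.14 and -0.15, while Il3, Il4 and Il22 stayed near background in both groups.

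**Figure D2:**
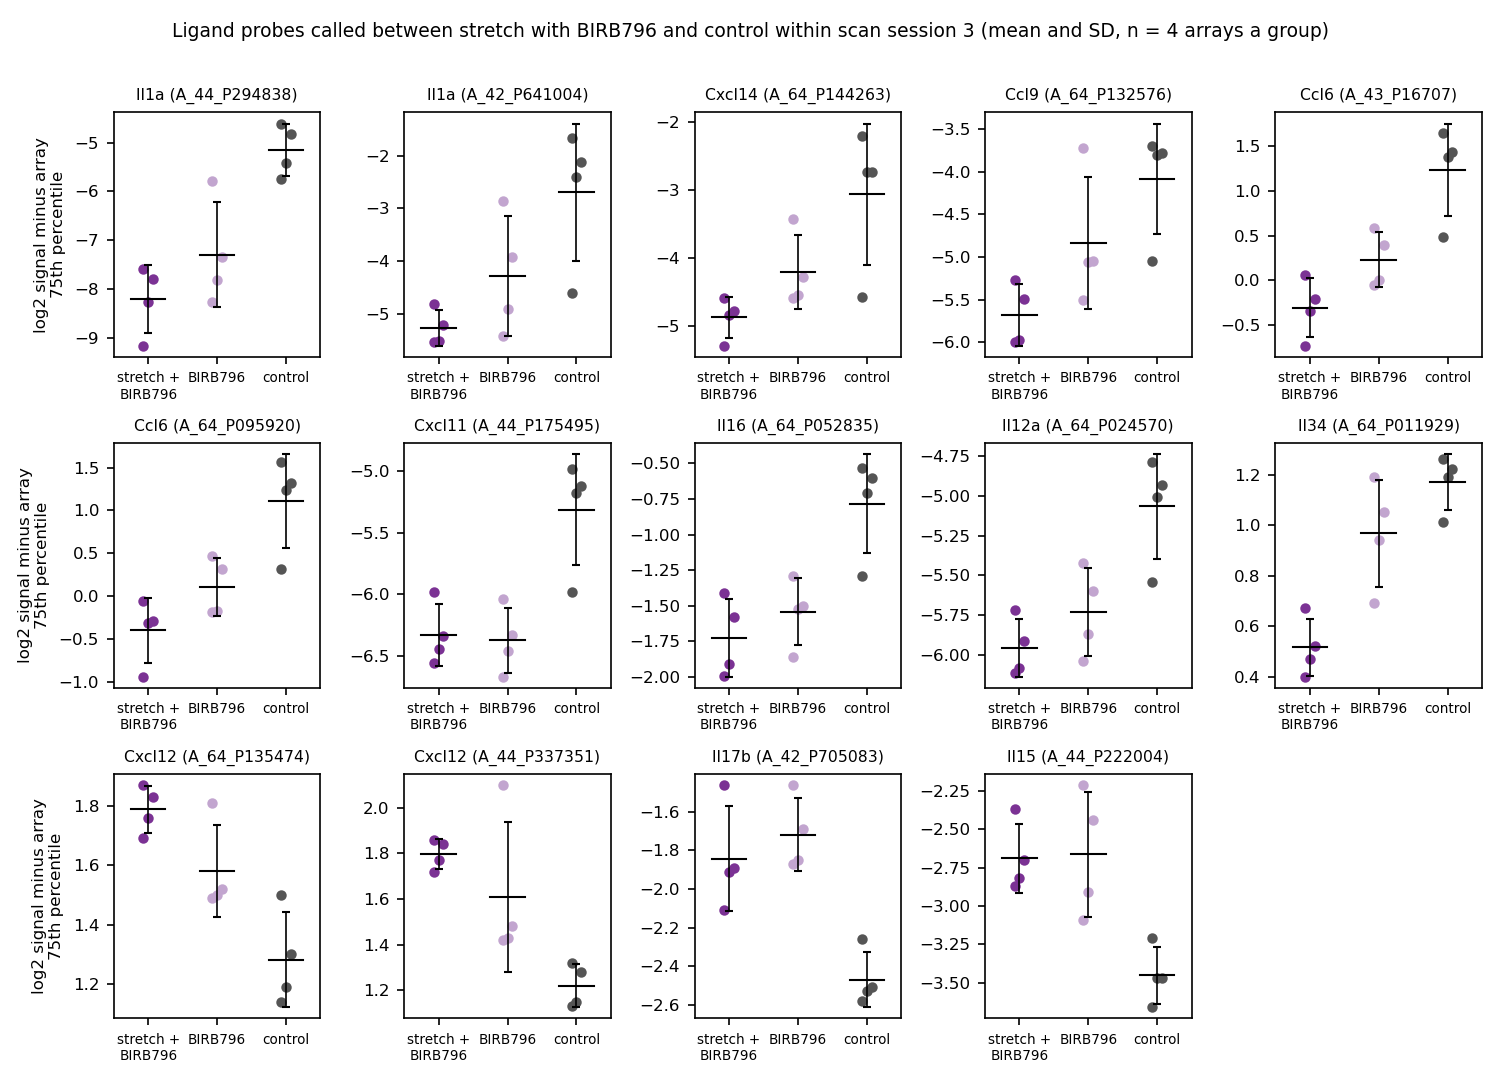
Level (log2 signal minus the array's 75th percentile) of the 14 ligand probes called between stretch with BIRB796 and control within scan session 3, in stretch with BIRB796, BIRB796 and control tissues; points are arrays, the long bar is the mean and the whisker the SD (n = 4 each). In the 10 probes that fell, the lowest control point is replicate 7 each time, and the BIRB796 points lie level with the stretch with BIRB796 points (Cxcl11, Il16) or nearer to control (Il34).

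The sequence upstream of the called genes was searched because AP-1 and NF-kB sites are the best known control elements of cytokine genes. RefSeq promoters of assembly GRCr8 (250 bases before to 50 after the gene's start) were found for 52 of the 68 genes, and for 10 of the 11 called ones. The AP-1 letters TGANTCA, on either strand, occurred in 10 of the 52 ligand promoters (19.2%) and in 7.33% of all 33469 promoters. The NF-kB letters (GGG, any pair of bases, TT, any base, CC) occurred likewise in 10 of 52 (19.2%), against 5% of all promoters. Of the 10 called genes with a promoter, 5 held the AP-1 letters (Il1a, Il16, Cxcl11, Cxcl14 and Il15, of which the last rose) and 1 the NF-kB letters (Ccl9). Of the ligands not called with all 12 arrays, Il11, Il18, Ccl7 and Cxcl10 held the AP-1 letters, and Cxcl1, Cxcl2, Cxcl6, Ccl19 and Ccl20 the NF-kB letters. Among genes that did not pass the filter, Il9 held both, and Il6, Il21 and Cxcl9 held the NF-kB letters. A match describes the letters and is not a bound site. The 250 bases before the start of Il1a (chr3:136990018-136990267, minus strand), Cxcl11 (chr14:15973478-15973727, plus strand), Cxcl10 (chr14:15988816-15989065, plus strand), Cxcl14 (chr17:8322900-8323149, plus strand), Il16 (chr1:147116743-147116992, minus strand) and Ccl9 (chr10:68868878-68869127, minus strand) are shown 5′ to 3′ along the gene, to let the position of the match be compared between genes. Capitals mark the AP-1 match, in Ccl9 the NF-kB match, and in Cxcl10 also, near its left end, the letters of an interferon-stimulated response element (GAAA, any pair of bases, GAAA), which 3 of the 52 ligand promoters and 3.92% of all promoters hold.
Il1a: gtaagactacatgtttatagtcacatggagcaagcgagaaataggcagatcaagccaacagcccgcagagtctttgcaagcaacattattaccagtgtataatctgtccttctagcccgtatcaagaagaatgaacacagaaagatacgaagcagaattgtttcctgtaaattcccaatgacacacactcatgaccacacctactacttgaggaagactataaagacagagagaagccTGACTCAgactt
Cxcl11: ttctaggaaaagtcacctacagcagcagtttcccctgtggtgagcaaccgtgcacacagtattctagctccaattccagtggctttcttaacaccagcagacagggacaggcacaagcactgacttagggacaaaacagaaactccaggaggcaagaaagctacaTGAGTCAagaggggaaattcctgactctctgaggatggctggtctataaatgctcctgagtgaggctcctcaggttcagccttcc
Cxcl10: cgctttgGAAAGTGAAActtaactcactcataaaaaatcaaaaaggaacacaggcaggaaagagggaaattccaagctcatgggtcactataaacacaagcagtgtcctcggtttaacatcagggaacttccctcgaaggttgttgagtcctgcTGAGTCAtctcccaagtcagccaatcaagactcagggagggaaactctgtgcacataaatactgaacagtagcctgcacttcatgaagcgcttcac
Cxcl14: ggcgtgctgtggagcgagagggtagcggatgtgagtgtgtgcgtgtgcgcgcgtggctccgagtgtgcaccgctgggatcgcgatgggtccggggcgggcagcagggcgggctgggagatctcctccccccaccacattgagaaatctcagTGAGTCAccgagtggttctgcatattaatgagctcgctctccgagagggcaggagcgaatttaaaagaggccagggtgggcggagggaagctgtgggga
Il16: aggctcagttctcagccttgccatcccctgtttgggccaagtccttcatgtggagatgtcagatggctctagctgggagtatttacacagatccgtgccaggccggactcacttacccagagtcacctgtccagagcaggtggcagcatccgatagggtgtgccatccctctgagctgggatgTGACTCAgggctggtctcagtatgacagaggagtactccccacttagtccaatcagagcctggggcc
Ccl9: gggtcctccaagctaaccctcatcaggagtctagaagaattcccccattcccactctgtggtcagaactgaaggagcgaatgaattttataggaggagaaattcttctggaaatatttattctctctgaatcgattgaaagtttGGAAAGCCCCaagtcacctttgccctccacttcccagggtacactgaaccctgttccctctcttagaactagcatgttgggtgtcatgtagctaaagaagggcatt
The Cxcr3 ligands Cxcl11 and Cxcl10, which neighbour each other on chromosome 14, carried the AP-1 letters TGAGTCA, beginning at position -85 in Cxcl11 and -96 in Cxcl10, counted from the gene's start. Cxcl14 carried TGAGTCA too, at -99. Il16 and Il1a carried TGACTCA, which is the same letters read on the other strand, at -67 and -12, and Il15, not shown, carried TGATTCA at -176.

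The next comparison asked what the inhibitor changed without stretch. BIRB796 tissue differed from control in the same session and against the same controls as above, so the 2 comparisons are not independent. The median over ligand probes was -0.31, against -0.02 over all probes, and 44 of 63 probes were negative. This shift depended on the background correction. With normexp the ligand median was 0.000162, against 0.177 over all probes, with 31 probes negative and 32 positive. With array median scaling or quantile normalization it was -0.24 and -0.30. With session in the model limma called 0 ligand probes (0% of all probes were called). An unadjusted p under 0.05 was reached by 9 ligand probes, 8 of them lower, and by 6.28% of all probes. Within session 3 alone 2 were called, where 1.78% of all probes were: Cxcl11 fell by 1.06 ± 0.22 (2.09-fold, adjusted p = 0.0432), and Il17b rose by 0.75 ± 0.14 (1.68-fold, adjusted p = 0.0369), at the levels given above. Neither call held with slide as a random block (adjusted p = 0.0774 and 0.0522). Without control replicate 7, 19 probes of 17 genes were called, 16 lower and 3 higher. Of all probes 9.65% were then called (5.69% lower, 3.96% higher). These calls too rest on the 3 controls that lay close together. Without any other single control 0 ligand probes were called.

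In the model over all samples, with each gene on its brightest probe, Cxcl11, Ccl5 and Cxcl10 had the smallest p in this comparison. Ccl5, which draws T cells and monocytes, read -4.55, -4.75, -5.16 and -4.41 in BIRB796, and -3.69, -2.65, -1.92 and -4.76 in control tissue. Control replicate 7 sat among the treated tissues, the other 3 above them. Ccl5 differed by -1.46 ± 0.52 within session 3 (adjusted p = 0.160), and by -1.96 ± 0.41 without control replicate 7 (adjusted p = 0.0191). Cxcl10 read -5.87, -5.12, -5.74 and -4.48 in BIRB796, and -2.93, -3.54, -3.55 and -5.05 in control tissue, with the same arrangement, and differed by -1.54 ± 0.46 (adjusted p = 0.102), and by -1.96 ± 0.37 without control replicate 7 (adjusted p = 0.0131). The lowest family medians were those of the CXC and CX3C chemokines (-0.62), the IL-1 family (-0.65) and Tnf with Il16 (-0.71). Ligands without overlap between BIRB796 and control were Ccl27, Cxcl11, Il16 and 1 Il1a probe below (4 probes, 6.35%, where 6.92% of all probes had none) and Cxcl12, Il15 and Il17b above (3 probes, 4.76%, against 4.82% of all probes), shares like those of the whole array.

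Stretch in the presence of the inhibitor was read from stretch with BIRB796 against BIRB796, without any control array. Limma called 0 ligand probes with session in the model (0% of all probes called) and 0 within session 3 (0.0744% of all probes, 0.00744% lower and 0.067% higher). With session in the model 0 ligand probes had an unadjusted p under 0.05, where 1.89% of all probes had one. Within session 3, 3 of the 63 ligand probes had one, a smaller share than the 8.47% of all probes. The 3 were Il34 (-0.45 ± 0.11, adjusted p = 0.264), Cxcl13 (0.43 ± 0.17) and Ccl11 (-0.23 ± 0.10), an eosinophil attractant. The values of Il34 above show all 4 stretch with BIRB796 tissues below all 4 BIRB796 tissues; Ccl11 was the only other ligand of which this held (2 probes, 3.17%, where 1.72% of all probes did so), and no ligand lay wholly above, where 4.56% of all probes did. Overall 39 of 63 probes were negative, with a median of -0.10 against 0.05 over all probes. Over all samples, with each gene on its brightest probe, the smallest p belonged to Ccl9, Ccl22 and Il3. Ccl9 differed by -0.84 ± 0.47 (adjusted p = 1.00), its interval running from -1.82 to 0.13. Ccl22, a dendritic cell and macrophage ligand of Ccr4, read -6.52, -6.98, -7.35 and -7.24 in stretch with BIRB796, and -6.77, -6.11, -7.11 and -6.37 in BIRB796 tissue. These overlapped, and differed by -0.43 ± 0.25. Il3, a mast cell and progenitor growth factor, read -10.27, -10.44, -9.80 and -10.12 in stretch with BIRB796, and -9.64, -5.98, -10.29 and -10.36 in BIRB796 tissue, so that its difference of -1.09 ± 0.68 came from BIRB796 replicate 2, on a probe well above background on 7 of the 22 arrays.

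The question of what stretch alone changed rests on the 3 slides of session 1, each of which held 1 stretch and 1 control tissue. Ligand RNA was again mostly lower, though nothing passed the test. Of the 63 probes 40 were negative, with a median of -0.17 against 0.05 over all probes. This direction rests in part on stretch replicate 3. Without that array the median was 0.12, against 0.14 over all probes, with 29 probes negative and 34 positive. Without any other single array of session 1 the median stayed negative, from -0.32 to -0.12. With normexp background correction it was -0.04, with 34 negative and 29 positive. With session in the model limma called 0 ligand probes and 0% of all probes. An unadjusted p under 0.05 was reached by 2 ligand probes and by 2.94% of all probes. Within session 1 alone it called 0 as well (0% of all probes), with 6 ligand probes at an unadjusted p under 0.05, where 2.71% of all probes had one. With slide as a block it again called 0 of the ligand and 0% of all probes, with 8 ligand probes at an unadjusted p under 0.05, where 4.24% of all probes had one. All 4 IL-1 family genes were negative, with a median of -0.87, though on slide 2 Il18 and Il33 were higher in stretch (0.91 and 0.40), and Tnf with Il16 had a median of -0.85. Il1b read -2.36, -2.02 and -2.04 in stretch, and -1.11, -1.40 and -0.67 in control tissue. Every stretch value lay below every control, by 1.26, 0.61 and 1.38 within the 3 slides, and the difference was -1.08 ± 0.24 (2.12-fold, unadjusted p = 0.00370, adjusted p = 1.00). Il1a on its brighter probe read -3.35, -3.24 and -4.29 in stretch against -2.76, -3.17 and -1.85 in control tissue. Its other probe read -5.55, -5.49 and -6.08 in stretch against -5.77, -5.53 and -4.70 in control tissue, higher in stretch on slides 1 and 2 and lower on slide 3, and differed by -0.37 ± 0.33.

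Tnf, Ccl3 and Cxcl11 had the smallest p over all samples. Tnf read -1.23, -1.16 and -1.68 in stretch, and -0.33, -0.96 and 0.46 in control tissue of session 1, without overlap. In session 2, stretch replicates 4 to 7 read 0.25, 0.21, -0.70 and -1.83. The difference, which session 1 alone informs, was -1.08 ± 0.45 (adjusted p = 1.00, unadjusted p = 0.0268). Ccl3 read -3.08, -2.16 and -1.25 in stretch, and -1.30, -1.64 and 0.28 in control tissue, and 1.30, 1.27, 0.52 and -0.98 in the stretch tissues of session 2. It was lower in stretch on each of the 3 slides, by 1.78, 0.51 and 1.53, although the groups overlapped, and it differed by -1.27 ± 0.58 (unadjusted p = 0.0415). Of these 3 genes Cxcl11 went the other way: it read -4.05, -3.73 and -3.70 in stretch, and -4.39, -4.33 and -4.61 in control tissue, each stretch value above every control, with a difference of 0.62 ± 0.32 (unadjusted p = 0.0659). This sign rests on session 1, since without a session term the difference was -0.27. Within session 1, 23 of the 63 ligand probes were positive, among them Cxcl10 (0.79 ± 0.55). Cxcl1, the main neutrophil attractant of rats, read -1.50, -0.90 and -1.85 in stretch, and -0.56, -0.78 and -0.04 in control tissue (-0.96 ± 0.32), and Csf1 read 0.69, 1.03 and 0.86 against 1.40, 1.39 and 1.38 in control tissue (-0.53 ± 0.17), both without overlap. The ligands without overlap between these groups were Ccl6, Csf1, Cxcl1, Il16, Il1a, Il1b and Tnf below (7 probes, 11.1%, where 4.20% of all probes had none) and Ccl27 and Cxcl11 above (2 probes, 3.17%, against 4.55% of all probes).

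**Figure D3:**
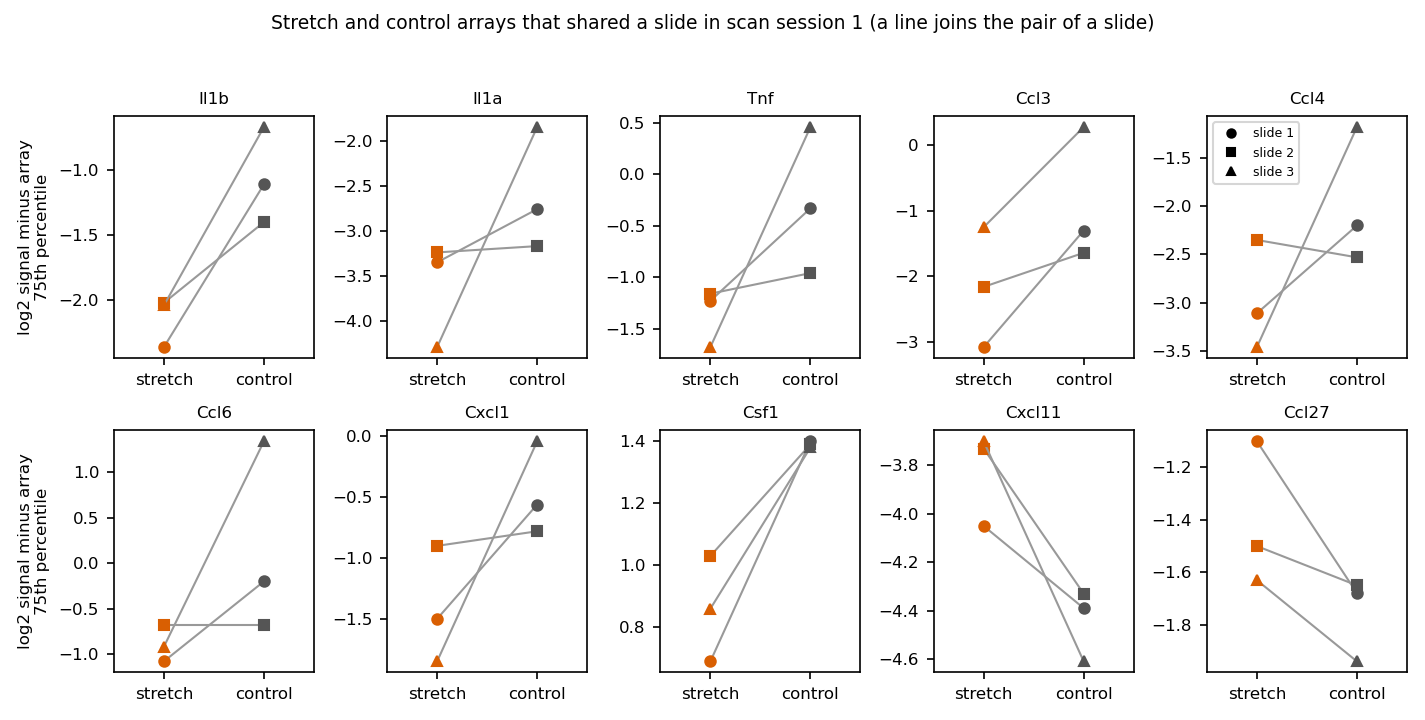
Level (log2 signal minus the array's 75th percentile) of 10 ligand genes in the stretch and control tissue of each slide of scan session 1; a line joins the pair of a slide and the marker shape gives the slide. Il1b, Tnf, Ccl3, Cxcl1 and Csf1 are lower in stretch on all 3 slides, and Cxcl11 and Ccl27 are higher on all 3.

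What the inhibitor changed in stretched tissue could not be read within a session, since no session held both groups: it was estimated through the controls of sessions 1 and 3. Limma called 0 ligand probes in stretch with BIRB796 against stretch (0% of all probes called). An unadjusted p under 0.05 was reached by 6 ligand probes, all lower, and by 2.25% of all probes. The ligand median was -0.16 against -0.00 over all probes. Cxcl11 read -5.98, -6.34, -6.56 and -6.45 in stretch with BIRB796, and from -7.50 to -3.70 with a median of -5.07 in the 6 stretch samples, which were split by session and overlapped. It differed by -1.64 ± 0.42 (unadjusted p = 0.00105, adjusted p = 1.00). Ccl22 ran from -6.82 to -3.25 in stretch (median -5.18), against the stretch with BIRB796 values given above, and differed by -1.09 ± 0.39, and Cxcl14 ran from -4.52 to -3.47 (median -4.04), above all stretch with BIRB796 tissues, and differed by -1.54 ± 0.65.

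The stretch effect with inhibitor was also set against that without it in 1 interaction term. Limma called 0 ligand probes (0% of all probes called), and 0 had an unadjusted p under 0.05, where 1.41% of all probes had one. The smallest p belonged to Il33 (0.69 ± 0.37), Ccl22 (-0.70 ± 0.39) and Cxcl13 (1.59 ± 0.89), with adjusted p = 1.00. Il33 read -0.38, -0.24, -0.26 and -0.47 in stretch with BIRB796 and -0.16, -0.83, -0.58 and -0.67 in BIRB796, and -0.36, 0.13 and -0.94 in stretch and 0.26, -0.27 and 0.26 in session 1 control tissue. Cxcl13, which draws B cells through Cxcr5, read -1.05, -0.75, -1.0 and -1.17 in stretch with BIRB796, -1.22, -0.99, -1.66 and -1.83 in BIRB796, 0.01, 1.08 and -2.49 in stretch and 1.35, -0.06 and 0.77 in control tissue. Its stretch tissues spread over more than 3 units, so the interval of the interaction ran from -0.28 to 3.46. The intervals of Il33 and Ccl22 also held 0.

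**Figure D4:**
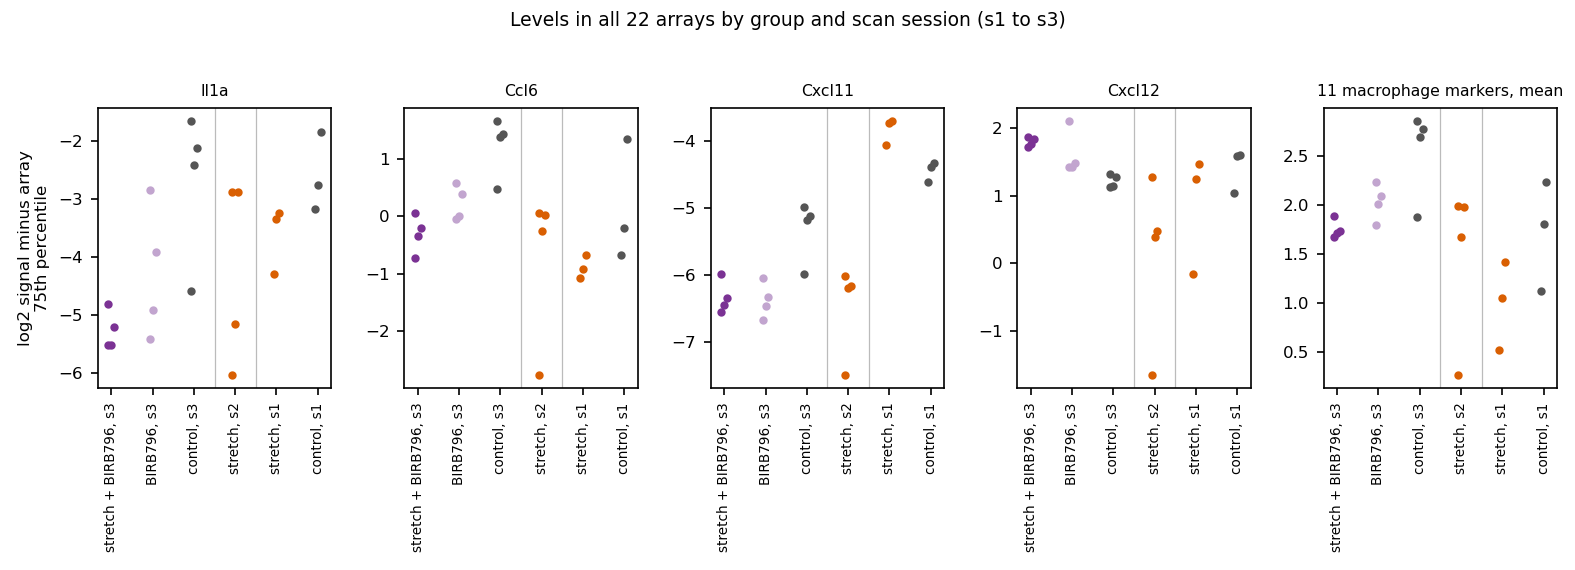
Levels (log2 signal minus the array's 75th percentile) of Il1a, Ccl6, Cxcl11 and Cxcl12 on their brightest probe, and the mean level of 11 macrophage markers, on all 22 arrays by group and scan session (s1 to s3; grey lines part the sessions). In session 3 the macrophage markers run from 1.67 to 1.89 in stretch with BIRB796, from 1.80 to 2.24 in BIRB796 and from 1.88 to 2.86 in control tissue; the lowest control of session 3, in that panel and in those of Il1a, Ccl6 and Cxcl11, is replicate 7.

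Markers of several other cells also differed between the groups, not all in the direction of the ligands. Within session 3, all 11 tested macrophage markers were lower in stretch with BIRB796 than in control tissue, 5 of them called (Aif1 -0.90 ± 0.17, Cd68 -1.13 ± 0.23, Fcer1g, Itgam and Mrc1), with a median of -0.78, and all 11 were lower in BIRB796 tissue too, none called, with a median of -0.47. Their mean level ran from 1.67 to 1.89 in stretch with BIRB796, from 1.80 to 2.24 in BIRB796 and from 1.88 to 2.86 in control tissue. In session 1 it ran from 0.52 to 1.42 in stretch and from 1.12 to 2.24 in control tissue. All 11 were again lower on average (median -0.73), none called. By slide, the mean level was lower in stretch on slides 1 (1.05 against 1.81) and 3 (0.52 against 2.24). On slide 2 it was higher in stretch (1.42 against 1.12). Endothelial markers fell in 3 of 7 cases with stretch and BIRB796 (Pecam1 -1.31 ± 0.24, Kdr and Tie1), and mesothelial markers in 2 of 5 (Krt19 and Msln). All 4 smooth muscle markers rose, Myh11 by 1.53 ± 0.28. Of the 8 cardiomyocyte and 6 fibroblast markers limma called 0 in this comparison. Tnni3 (-0.44 ± 0.14), Pdgfra (-0.59 ± 0.17) and Lum (1.21 ± 0.35) had an unadjusted p under 0.05. Of 7 neutrophil, mast cell and lymphoid markers 5 were higher, with a median of 0.22. Against BIRB796 tissue all 7 were higher (median 0.38), while BIRB796 tissue had 5 of 7 below control (median -0.15). None of these was called, and 2 to 5 of the 7 were well above background on the session 3 control arrays. With BIRB796 alone, 3 of the 4 smooth muscle markers rose (Acta2 by 1.19 ± 0.26, Myh11 by 1.61 ± 0.28, and Tagln) and 1 of 5 mesothelial markers fell, Krt19 by 1.66 ± 0.28, while all 7 endothelial markers were negative, none called, with a median of -0.50. These calls are from session 3 alone, where 7.47% of all probes were called with stretch and BIRB796 and 1.78% with BIRB796 alone. In the model over all samples limma called 0 of these markers in either comparison. The part of any of the marker differences in the ligand differences was not tested.

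The genes that receive, block or process the ligands were read from 7 lists, against the 7.47% of all probes called in stretch with BIRB796 against control and the 1.78% called in BIRB796 against control. These calls are from session 3 alone. In the model over all samples limma called 0 genes of the 7 lists with BIRB796 alone. With stretch and BIRB796 it called 0 of the chemokine and cytokine receptors, antagonists and NF-kB genes there, with smallest adjusted p = 0.149, 0.282, 0.150 and 0.206. Of 20 chemokine receptors tested, 1 fell with stretch and BIRB796 within session 3, Ccr10, the receptor of Ccl27 and Ccl28, by 0.90 ± 0.23, and of 30 cytokine receptors 2 fell, Csf2ra by 0.77 ± 0.16 and Csf3r by 0.92 ± 0.24, both shares near that of all probes. The antagonists and decoys gave 2 of 11: Sigirr, an inhibitor of IL-1 receptor signalling, fell by 0.78 ± 0.12, and the IL-18 binding protein Il18bp by 0.71 ± 0.16. Among 10 inflammasome and processing genes, all but 1 were lower and 2 fell, Casp1, which cleaves the precursors of IL-1 beta and IL-18, by 0.94 ± 0.22 and Dpp4, which trims several chemokines, by 0.81 ± 0.22. Of 15 NF-kB genes, Irak3 and Ikbke fell and Ikbkg rose. Of 16 genes of the p38 branch and mRNA stability, Mapk12, a p38 isoform, fell by 1.01 ± 0.19 and Map2k3, a kinase that activates p38, rose by 0.48 ± 0.09. Of 7 adhesion partners, the heparan sulfate carrier Sdc1 rose by 0.56 ± 0.11. With BIRB796 alone, Sigirr (-0.72 ± 0.12), Mapk12 (-0.88 ± 0.19) and Dpp4 (-1.07 ± 0.22) fell. Il18bp and Nlrp3 differed by -0.62 and -0.73 with BIRB796 alone, Bcl3 and Nfkb1 by -0.41 and -0.27, and Map2k6 by 0.64, none of them called. Between stretch with BIRB796 and BIRB796 limma called 0 genes of these 7 lists; the smallest unadjusted p in each belonged to Ackr3 (0.47), Il13ra2 (0.31, a decoy that 2 lists hold), Ikbkg (0.33), Map2k6 (-0.47), Mmp9 (-1.89) and Sdc4 (0.38). With stretch alone, in session 1, it also called 0, with Ccr2 at 0.47, Il6r at -0.48, Il18bp at -0.33, Irak3 at -0.34, Map2k3 at 0.49, Dpp4 at -1.34 and Tnfaip6 at 1.03.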

How the data were processed

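RNA was hybridised to 1-colour Agilent arrays (Cy3), per the labels' protocols. The authors deposited 1 scanner file per array with background-subtracted intensity values, per the file headers, and a value table on a log2 scale, used only as an alternative. The log2 of the processed intensity minus each array's 75th percentile was computed here, spots of a probe were averaged, and a probe was tested if 4 or more arrays measured it well above background. Differences were fitted with limma 3.58.1 (R 4.3.3, statmod 1.5.0) with scan session as a term, over all 4 groups, and again within each session; p-values were adjusted (Benjamini-Hochberg) over 26881 probes. The fit was tested on simulated data. Intervals are 95%. The number of arrays limits the precision. Stretch replicates 4 and 5 were averaged. Same-numbered stretch and control samples of session 1 share a slide and deviated from their group means together (correlations of 0.14 to 0.56 in 3 pairs), so they were also fitted with slide as a block, an alternative chosen after seeing the data. Per-array values are given for called ligands and, per comparison, for the 3 ligand genes with the smallest p, each gene on the probe with the highest mean; further per-array values were added after they were seen. Of the other lists, called genes and those with the smallest p are named, within sessions. Alternatives covered scaling, background correction (normexp with offset 50, on median spot signals), dim-probe filters, batch and slide terms, a replicate block and leaving out each replicate; those within session 3 were chosen after seeing the data. The members and lists were chosen with earlier results of these data known. Gene names are the array's, updated through RefSeq tables; probe positions are those of the files (rn4), and promoters are RefSeq's (GRCr8). Probes outside the naming rule, such as those with older interleukin names, were not used. One gene that the rule for the other lists would name is not reported here.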

Additional observations from a re-analysis of the deposited data

Results flagged for a closer look

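In 6 of 88 groups tested (22 ligand probes in 4 groups each), 1 sample lay far from the others by Dixon's gap ratio; chance gives about 1 in 20. Cxcl12 read 2.10 on one probe and 1.81 on the other in BIRB796 replicate 1, where the other BIRB796 arrays ran from 1.42 to 1.48 and from 1.49 to 1.52. Il3 read -5.98 in BIRB796 replicate 2, the others from -10.36 to -9.64, on a probe near background. In stretch replicate 7, the array that stood apart from its group, Il12a read -8.11, the others from -5.81 to -4.72, and Il16 read -6.11, the others from -2.45 to -0.48. Il17b read -1.54 in control replicate 1, the other controls from -2.58 to -2.15; that array was in session 1 and enters no comparison of session 3.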

How the results depend on the processing

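The single ligand call of stretch with BIRB796 against control (1 probe, Il1a) was 14 calls with session 3 alone. It was 0 without a batch term, with the array set as term, slide as a fixed block, a replicate block with scan session, quantile normalization, normexp, no filter, well above background on every array, 1 probe per gene, or all 22 arrays apart. Leaving out 1 replicate gave 0 to 5 (5 without control replicate 7, 2 without stretch replicate 7). BIRB796 against control, at 0, was 2 with session 3 alone. Stretch against control, at 0, was 1 without a batch term and 7 with the array set; there Cxcl11 turned to -0.27 and -0.39. Stretch with BIRB796 against stretch, at 0, was 1 under both terms. Within session 3, leaving out 1 replicate gave 0 to 28 calls of stretch with BIRB796 against control (1, 0, 0 and 28 without control replicates 4 to 7, 19, 9, 16 and 14 without each BIRB796 replicate, 6, 7, 6 and 5 without each stretch with BIRB796 replicate) and 0 to 19 of BIRB796 against control; slide as a fixed block gave 0 for both, and as a random block 11 and 0. The cause was not tested. Within session 1, where the numbers pair the samples, a replicate block of the shared slide left stretch against control at 0 calls. Stretch and control 4 to 7 share only a number, with correlations of -0.02 to 0.16. Stretch with BIRB796 and BIRB796 shared a slide in replicates 1 and 4, at correlations of 0.52 and 0.07. Their replicates 2 and 3 shared only a number, at 0.02 and 0.09. Dim probes, near background on many arrays, bear on no call except the second Il1a probe.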
